A study of Mus musculus with 6 samples.

Results

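The genes described here encode the metalloproteases that cut the extracellular matrix and proteins of the cell surface, together with the proteins that hold these enzymes in check. They were chosen by name, as protein-coding genes whose symbols mark them as matrix metalloproteinases (Mmp), tissue inhibitors of metalloproteinases (Timp), ADAM proteins (Adam), ADAMTS proteins (Adamts) or ADAMTS-like proteins (Adamtsl). The deposited tables held 58 such genes among 22913 genes in all, namely 17 Mmp, 3 Timp, 20 Adam and 18 Adamts and Adamtsl genes. They were measured by sequencing of polyadenylated RNA from HL-1, an established mouse line of atrial cardiomyocyte origin. The 3 HSPA1A libraries came from cells given a plasmid for overexpression of HSPA1A, the stress-inducible HSP70 chaperone, which the labels call human, and the 3 Ctrl libraries from cells given a control plasmid. The labels give Lipofectamine 2000 as the carrier and a harvest after 48 h for all 6 libraries. Nothing in the labels tells if replicates were cultured apart, and the p-values therefore measure library-to-library spread that may be only technical.

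Matrix metalloproteinases are made as inactive proenzymes and together can break down most proteins of the matrix, with collagenases cutting fibrillar collagen and gelatinases cutting denatured and basement membrane collagen. TIMPs bind the active site of these enzymes. ADAM proteins sit in the membrane and release the outer parts of cytokines, growth factors and receptors, and ADAMTS proteins are secreted enzymes that cut proteoglycans or trim procollagen. In the heart these enzymes are known for their part in remodelling of the matrix during hypertrophy and after injury.

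The libraries held between 23849656 and 26897086 counts. The leading principal component, which carried 34.3% of the variance of log2 CPM, placed HSPA1A replicates 1, 2 and 3 at -15.9, 15.1 and -18.3, and the Ctrl libraries between 4.33 and 8.27. Mouse Hspa1a had 17, 20 and 11 reads in HSPA1A replicates 1 to 3, against 10, 17 and 11 reads in Ctrl replicates 1 to 3, and how far a transcript of the plasmid is counted on the mouse gene was not tested. Of 17 markers of atrial heart muscle cells, 14 were in the table, and the atrial genes Myl7 and Nppa and the gene Myh6 were not. Of these 14, 6 averaged at least 1 FPKM (read counts divided by gene length and library size). They were Des, Gata4, Gja1, Nkx2-5, Nppb and Tnnt2. Myl4, Gja5 and Mef2c averaged 0.88, 0.74 and 0.18 FPKM. Actn2, Ryr2, Tnni3, Ttn and Tbx5 averaged under 0.1 FPKM, so several genes that define working heart muscle were at or near 0. The list summed to between 244 and 280 FPKM in HSPA1A libraries and between 286 and 292 FPKM in Ctrl libraries, most of it Des, and none of its genes was called. Among 7 fibroblast markers in the table, Col1a1, Col1a2, Col3a1 and Dcn averaged at least 1 FPKM, and the list summed to between 132 and 162 FPKM in HSPA1A libraries and between 152 and 155 FPKM in Ctrl libraries. Endothelial markers summed to at most 0.2 FPKM in HSPA1A and 0.17 FPKM in Ctrl libraries. Smooth muscle markers, most of it Acta2, summed to between 20.2 and 27.4 FPKM in HSPA1A and between 23.3 and 26.8 FPKM in Ctrl libraries. In a bulk sample, fewer cells of a type and less RNA per cell cannot be told apart.

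Of the 58 genes, 33 had enough reads to be tested, namely 3 Timp, 8 Mmp, 10 Adam and 12 Adamts and Adamtsl genes. The test was edgeR's quasi-likelihood test over 12827 genes with Benjamini-Hochberg adjustment, and a gene was called at an adjusted p under 0.05. None of the 33 was called, where 0.179% of all tested genes were, 0.0234% higher and 0.156% lower. The smallest adjusted p was 0.109, for Mmp13. An unadjusted p under 0.05 was seen for 6 of the 33 genes, against 8.59% of all tested genes. Of these, 2 were higher (Mmp13 and Timp3) and 4 lower (Mmp2, Adam8, Adamts7 and Adamts14), against 4.33% and 4.26% of all tested genes. DESeq2 called 1 of the 33, Mmp13, as higher, where it called 0.499% of all tested genes and 0.203% as higher. Without a filter on low counts, edgeR called Mmp13 and Timp3 higher and Adam8 lower, where it called 0.895% of 22913 genes, 0.41% higher and 0.484% lower. The log2 fold changes ran from -0.48 to 0.57, 15 above 0 and 18 below 0, where 51% and 49% of all tested genes did so, with a median of -0.011 against 0.0029 over all tested genes. No gene differed by 1.5-fold or more, and 20 of the 33 differed by less than 1.2-fold.

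Several Mmp genes are neighbours on mouse chromosome 9. Mmp13, Mmp12, Mmp3, Mmp10 and Mmp8 lie in this order on the plus strand within 296.0 kb of GRCm38, from 7272514 to 7568485. Mmp13, Mmp3 and Mmp10 were tested, while Mmp12 and Mmp8 had 15 and 13 reads over all 6 libraries. Promoters of MMP genes are known for a binding site of the AP-1 factors, with the letters TGAGTCA, close to a TATA box, with the letters TATAAA. The 120 bases before the RefSeq start of the 3 tested neighbours, on the plus strand of GRCm38.p6, are shown because all 3 hold both words. They cover chr9:7272394-7272513 for Mmp13, chr9:7445702-7445821 for Mmp3 and chr9:7502222-7502341 for Mmp10, and the capitals mark TGAGTCA on either strand, which reads TGACTCA on the other, and TATAAA on the strand of the gene.
Mmp13: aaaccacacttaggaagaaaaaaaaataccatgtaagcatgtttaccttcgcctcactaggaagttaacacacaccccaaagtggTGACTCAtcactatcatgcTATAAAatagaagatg
Mmp3: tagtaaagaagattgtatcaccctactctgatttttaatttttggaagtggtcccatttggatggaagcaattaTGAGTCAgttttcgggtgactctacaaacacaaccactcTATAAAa
Mmp10: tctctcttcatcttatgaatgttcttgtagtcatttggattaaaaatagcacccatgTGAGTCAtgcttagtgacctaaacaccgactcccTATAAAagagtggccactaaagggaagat

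Counted from the base before the start as -1, TGAGTCA lay at -35 to -29 in Mmp13, at -46 to -40 in Mmp3 and at -63 to -57 in Mmp10. TATAAA lay at -16 to -11 in Mmp13, at -7 to -2 in Mmp3 and at -29 to -24 in Mmp10. All these positions depend on the RefSeq start, which was not checked here. A RefSeq promoter was found for 34 of the 58 genes. In the 250 bases before the start, TGAGTCA occurred on either strand in 5 of these 34, the 3 genes above, Mmp12 and Adam19, or 14.7%, against 5.16% of 27025 genes. TATAAA on the strand of the gene occurred in 4 of the 34, the same 3 genes and Adamts1, or 11.8%, against 8.94% of all genes. The GC box letters GGGCGG occurred on either strand in 19 of the 34, or 55.9%, against 35.4% of all genes, among them Timp1, Timp2, Timp3, Mmp11, Mmp14, Adam8, Adam10, Adam15, Adam17 and Adamts14. A match to the NF-kB consensus was found in 3 of the 34, Adam19, Mmp12 and Mmp25, or 8.82%, against 6.73% of all genes. The shares over all genes were not limited to protein-coding genes, as the members are, so the sets compared differ. For TGAGTCA, all the members with a match but Adam19 are neighbours on chromosome 9, and Mmp12 held it only before its RefSeq start further downstream. These matches describe the letters in these windows and do not show binding.

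Compared per length in FPKM, the inhibitors were the most abundant members. Timp1, the most abundant member, stood at 453, 473 and 448 FPKM in HSPA1A replicates 1 to 3, against 453, 467 and 470 FPKM in Ctrl replicates 1 to 3. Timp2, which inhibits MMPs and also helps to activate Mmp2 on the cell surface, stood at 105, 101 and 109 FPKM in HSPA1A libraries, against 106, 110.3 and 107 FPKM in Ctrl libraries. Timp3, the TIMP that binds to the matrix and inhibits ADAM17 and several ADAMTS enzymes, stood at 68.3, 79.4 and 94.0 FPKM in HSPA1A libraries, against 72.6, 62.0 and 68.0 FPKM in Ctrl libraries. The order Timp1, Timp2, Timp3 was the same in every library, with no overlap between the 3 genes. The next most abundant members averaged less than the lowest Timp3 value, with Mmp19 at 41.3, Mmp11 at 33.7, Adam9 at 30.4, Adamtsl5 at 24.5, Adam15 at 19.96 and Adam10 at 19.2 FPKM over the 6 libraries. Adam15 and Adam10 overlapped in their range over libraries, from 15.7 to 22.6 and from 17.1 to 20.8 FPKM.

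**Figure D1:**
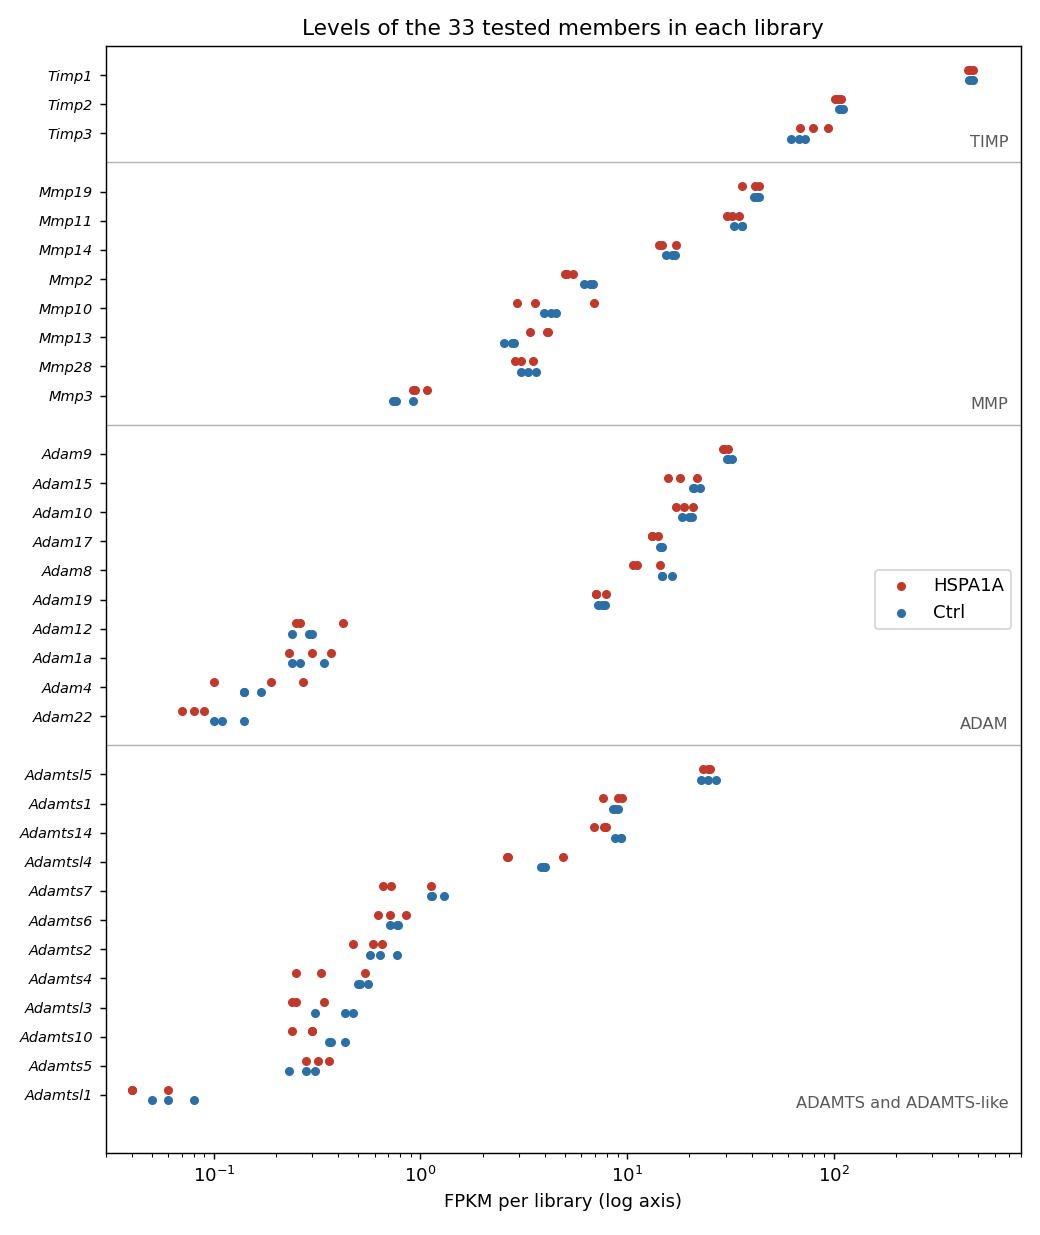
FPKM of each tested member in each library on a log axis, HSPA1A libraries above Ctrl libraries within each row, grouped by family. The 3 Timp genes lie at the right, from 62.0 to 473 FPKM, and 12 of the 58 members averaged at least 10 FPKM.

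Summed over each family, the Timp genes gave 643.8 ± 14.9 FPKM in HSPA1A and 638.6 ± 7.2 FPKM in Ctrl libraries (SD, n = 3 each). The Mmp genes summed to 106.1 ± 3.0 FPKM in HSPA1A and 111.4 ± 1.8 FPKM in Ctrl libraries. The TIMP sum over the MMP sum was 6.09, 6.0 and 6.12 in HSPA1A replicates 1 to 3, against 5.71, 5.63 and 5.85 in Ctrl replicates 1 to 3, so this ratio was higher in every HSPA1A library than in any Ctrl library. It is a description with no test, and it rests on few genes, since Timp1 makes up most of its upper part and Mmp19, Mmp11 and Mmp14 most of its lower part. The Adam genes summed to 96.6, 108.7 and 97.9 FPKM in HSPA1A libraries and to 111.6, 111.1 and 109.6 FPKM in Ctrl libraries, and the Adamts and Adamtsl genes to 47.4 ± 0.2 FPKM in HSPA1A and 50.9 ± 2.3 FPKM in Ctrl libraries (SD, n = 3 each). The Mmp, the Adam, and the Adamts and Adamtsl sums each lay below every Ctrl library in all 3 HSPA1A libraries. HSPA1A replicate 2 was nearest to the controls for each of these sums. For the Adamts and Adamtsl sum the HSPA1A libraries differed little, at 47.2, 47.6 and 47.3 FPKM in replicates 1 to 3. These sums were not tested, and on log2(FPKM + 1) the median difference over all tested genes was itself -0.041.

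**Figure D2:**
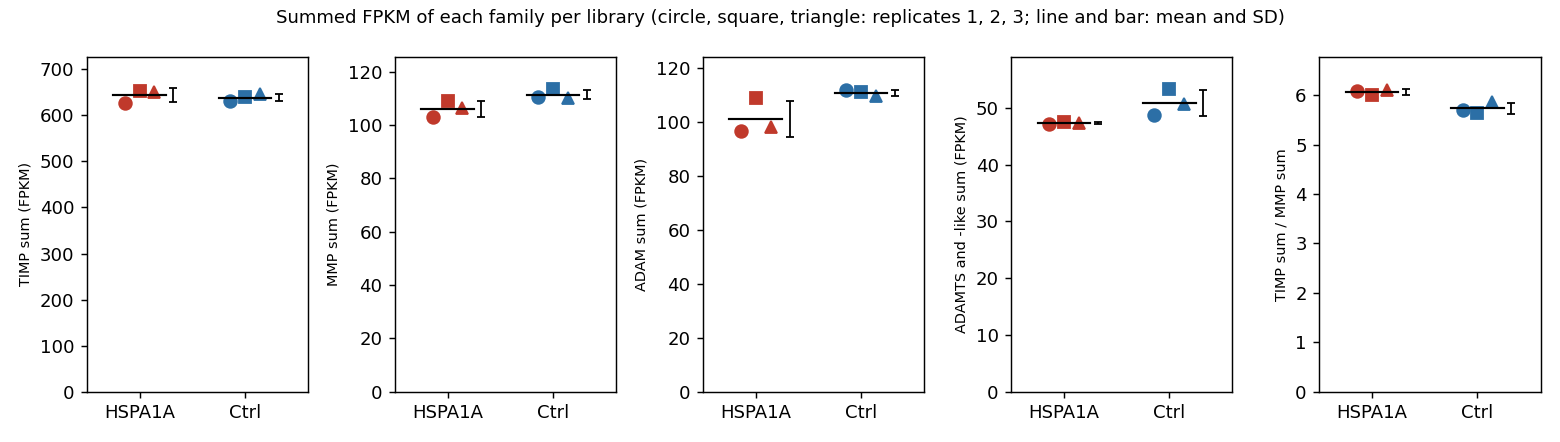
Summed FPKM of the Timp, Mmp, Adam, and Adamts and Adamtsl genes, and the ratio of the Timp to the Mmp sum, in each library, with means and SD. The ratio lay at 6.0 to 6.12 in HSPA1A libraries and at 5.63 to 5.85 in Ctrl libraries.

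At the other end, 25 members were not tested, with between 1 and 55 reads over all 6 libraries and a median of 13. They include the gelatinase gene Mmp9 with 5 reads, the membrane-type genes Mmp15, Mmp16, Mmp17, Mmp24 and Mmp25 with 27, 20, 27, 20 and 3 reads, and Adam28 and Adam33 with 19 and 3 reads. Of 8 ADAM genes known from testis, 6 were not tested, and of the 3 neuronal ADAM genes without a working protease site, Adam11 and Adam23 were not tested. Adam11 had 8 reads over the HSPA1A libraries and 25 over the Ctrl libraries, Adamts15 had 10 and 1, and all other genes in this group differed by fewer reads. The member just inside the filter was Adam4 with 69 reads and the member just outside was Adam23 with 55 reads. Adam4 shares its locus with Cox16 and Adam1a shares its locus with Mapkapk5, each on the same strand, so the reads given to these low members are uncertain. Timp4, the remaining TIMP gene, was not found among the protein-coding genes of the deposited data, so it is not analysed here.

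Collagenase 3, encoded by Mmp13 (ENSMUSG00000050578.9, chromosome 9, 7272514 to 7283331, plus strand), cuts fibrillar collagens and is the main interstitial collagenase of mouse tissues. Its level, in CPM (counts scaled to library size with TMM factors), was 10.1, 11.6 and 12.5 in HSPA1A replicates 1 to 3, against 7.92, 7.10 and 7.95 in Ctrl replicates 1 to 3. Every HSPA1A library lay above every Ctrl library. The means were 11.4 ± 1.2 CPM in HSPA1A and 7.66 ± 0.48 CPM in Ctrl libraries (SD, n = 3 each), 1.49 times higher in HSPA1A cells, and edgeR's quasi-likelihood test gave a log2 fold change of 0.57 ± 0.11 (SE; 95% interval 0.34 to 0.81) at an adjusted p of 0.109. DESeq2 called it (adjusted p = 0.0141), as did edgeR without HSPA1A replicate 2 (log2 fold change 0.56, adjusted p = 0.00652). So did edgeR without a filter on low counts (adjusted p = 0.000327), where the spread was shared over genes. There the SE was no smaller, at 0.12 against 0.11 with the filter. Mmp13 was not called in the other 5 fits that left out a library, in which the log2 fold change lay between 0.51 and 0.65. Of 16 alternative fits, only these 3 called it, and its log2 fold change ran from 0.39 to 0.65 over the 16.

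Its tested neighbours, Mmp3 and Mmp10, had smaller differences with wider errors. Mmp3, which encodes stromelysin 1, a protease that also activates other MMPs, stood at 2.18, 1.81 and 1.86 CPM in HSPA1A libraries, against 1.77, 1.40 and 1.44 CPM in Ctrl libraries. The groups did not overlap, but the highest Ctrl library lay just under the lowest HSPA1A library, and the log2 fold change of 0.34 ± 0.20 (SE) had an adjusted p of 0.665. Mmp10, which encodes stromelysin 2, stood at 6.87, 12.7 and 5.63 CPM in HSPA1A libraries, against 7.89, 8.14 and 7.15 CPM in Ctrl libraries. Its HSPA1A values lay on both sides of the Ctrl values, with replicate 2 above all Ctrl libraries and replicates 1 and 3 below them all. For Mmp10 the log2 fold change was 0.13 ± 0.25 (SE), -0.30 without HSPA1A replicate 2 and 0.35 without HSPA1A replicate 3. The promoters of all 3 genes hold the AP-1 and TATA letters shown above, and differences between the 3 genes were not tested.

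Mmp2 (ENSMUSG00000031740.7, chromosome 8, 92827291 to 92853420), which encodes gelatinase A, stood at 17.4, 17.8 and 17.1 CPM in HSPA1A libraries, against 20.2, 21.7 and 21.2 CPM in Ctrl libraries. Every HSPA1A library lay below every Ctrl library, and here HSPA1A replicate 2 did not stand apart. The means of 17.4 ± 0.3 CPM in HSPA1A and 21 ± 0.8 CPM in Ctrl libraries (SD, n = 3 each) gave a log2 fold change of -0.27 ± 0.07 (SE) and an adjusted p of 0.321 in edgeR's test. It was called lower without HSPA1A replicate 2 (adjusted p = 0.0246), and its log2 fold change lay between -0.30 and -0.25 in all 6 fits that left out a library. Mmp14, the membrane-type protease that activates Mmp2 together with Timp2, averaged 43.9 ± 3.2 CPM in HSPA1A and 44.7 ± 1.9 CPM in Ctrl libraries, with a log2 fold change of -0.03 and a 95% interval from -0.17 to 0.12.

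Mmp19 and Mmp11, the Mmp genes with the highest FPKM, and Mmp28 had log2 fold changes close to 0. Mmp19 stood at 158.6, 130.5 and 165.5 CPM in HSPA1A libraries, against 149.7, 151.8 and 155.9 CPM in Ctrl libraries, so HSPA1A replicate 2 was the lowest of the 6 and replicates 1 and 3 the highest. Its log2 fold change was -0.01 (95% interval -0.19 to 0.17). Mmp11, which encodes stromelysin 3, an MMP that is cut to its active form inside the cell by furin, had a log2 fold change of -0.05 (95% interval -0.18 to 0.08), and it overlaps Chchd10 on the other strand. Mmp28, which encodes epilysin, had a log2 fold change of -0.03 (95% interval -0.24 to 0.19). The sources do not give the strand setting of the counting, and reads of such overlapping pairs cannot be told apart here.

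**Figure D3:**
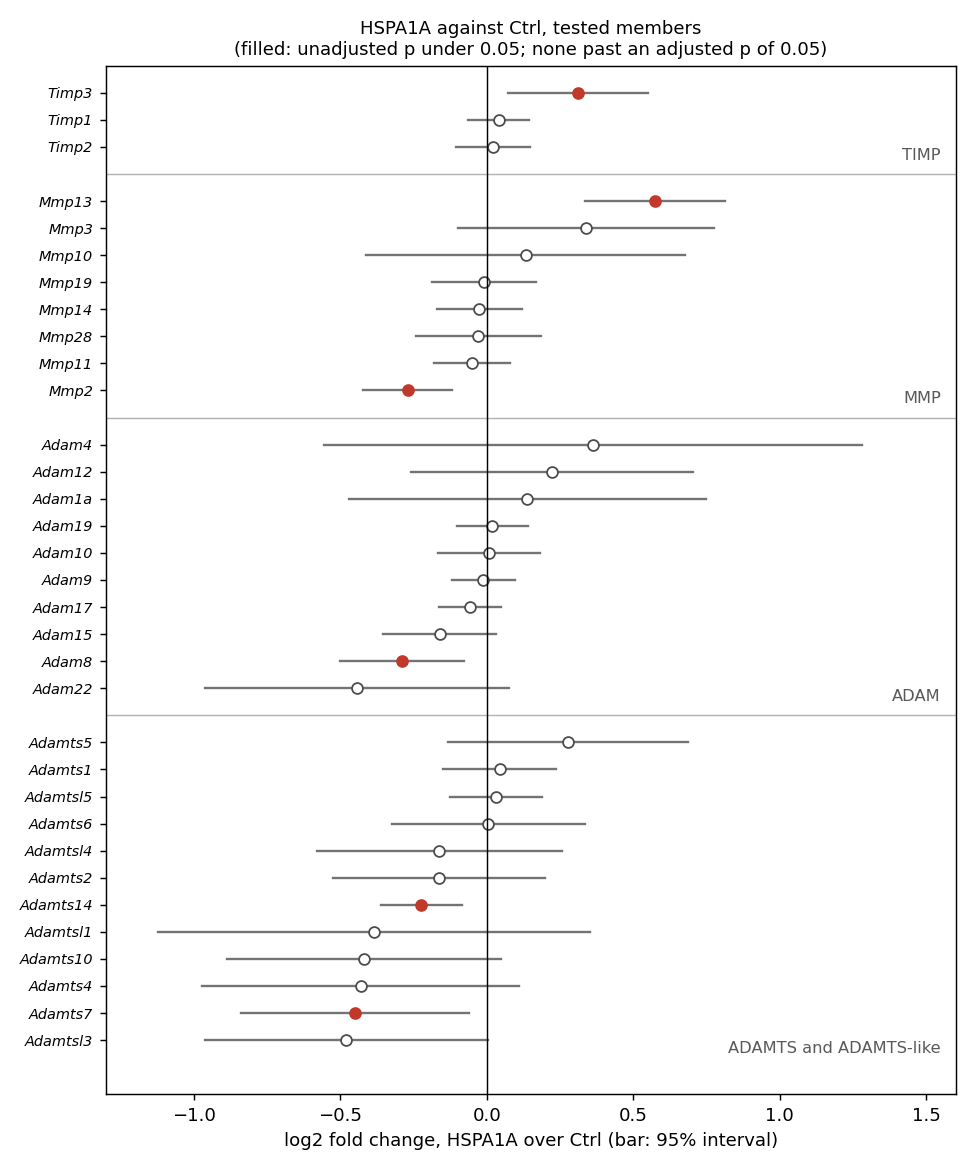
Log2 fold change of HSPA1A over Ctrl with 95% interval for the 33 tested members by family. Filled points have an unadjusted p under 0.05, which are Timp3 and Mmp13 above 0 and Mmp2, Adam8, Adamts14 and Adamts7 below 0.

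Among the inhibitors, Timp3 (ENSMUSG00000020044.11, chromosome 10, 86300372 to 86349506) stood at 360.1, 399.8 and 497.5 CPM in HSPA1A libraries, against 366.8, 306.7 and 338.8 CPM in Ctrl libraries. The groups overlapped, since HSPA1A replicate 1 lay below Ctrl replicate 1, and HSPA1A replicate 3 was the highest of the 6. The log2 fold change was 0.31 ± 0.11 (SE) with an adjusted p of 0.485 by edgeR's test. Leaving out HSPA1A replicate 3 gave 0.17, and leaving out replicate 1 gave 0.41. With replicate 2 left out it was 0.35 and was called (adjusted p = 0.0321). Timp3 was also called without a filter on low counts (adjusted p = 0.000204 by edgeR's test). There the spread was shared over genes and the SE was 0.06, against 0.11 with the filter. Timp1 stood at 449.6, 448.0 and 446.1 CPM in HSPA1A libraries, against 429.9, 435.0 and 440.5 CPM in Ctrl libraries. These CPM did not overlap, but its log2 fold change was 0.04 (95% interval -0.06 to 0.15), and it was -0.02 on log2(FPKM + 1), on which the groups overlapped. Timp2 had a log2 fold change of 0.02 (95% interval -0.10 to 0.15). Timp1 and Timp3 overlap the synapsin genes Syn1 and Syn3 on the other strand.

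Among the ADAM genes, those of the broadly expressed sheddases differed by little. Adam10, which encodes the main sheddase of Notch receptors and cadherins, averaged 95.7 ± 10.0 CPM in HSPA1A and 95.2 ± 6.3 CPM in Ctrl libraries (SD, n = 3 each), with a log2 fold change of 0.01 (95% interval -0.17 to 0.18). Adam17, which encodes the enzyme that releases TNF and ligands of the EGF receptor, stood at 66.4, 67.7 and 66.4 CPM in HSPA1A libraries, against 70.8, 68.9 and 68.8 CPM in Ctrl libraries. These values did not overlap, but the log2 fold change was -0.06 (95% interval -0.16 to 0.05). Adam9 and Adam19, of which Adam19 is known for a part in heart development, had log2 fold changes of -0.01 and 0.02, and their 95% intervals ran from -0.12 to 0.10 and from -0.10 to 0.14.

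Adam8 (ENSMUSG00000025473.14, chromosome 7, 139978932 to 139992562), a sheddase gene known from leukocytes, stood at 38.8, 48.1 and 37.2 CPM in HSPA1A libraries, against 55.2, 48.1 and 48.6 CPM in Ctrl libraries. HSPA1A replicate 2 lay just below the lowest Ctrl library, and replicates 1 and 3 lay well below all Ctrl libraries. The log2 fold change was -0.29 ± 0.10 (SE) with an adjusted p of 0.470 in edgeR's test, and it was -0.41 without HSPA1A replicate 2, where the gene was called lower (adjusted p = 0.00145). It was also called without a filter on low counts (adjusted p = 0.00486), where the spread was shared over genes and the SE was 0.07. Of 6 macrophage markers in the table, 2 averaged at least 1 FPKM, Cd14 and Cd68, and Ptprc, the marker of all leukocytes, had 0 reads over the HSPA1A and 2 over the Ctrl libraries. Of 2 neutrophil markers in the table, S100a8 averaged 6.49 FPKM and Ly6g had 1 read over all 6 libraries. Adam15 stood at 59.8, 68.8 and 52.4 CPM in HSPA1A libraries, against 66.0, 70.5 and 66.0 CPM in Ctrl libraries. Replicates 1 and 3 lay below all Ctrl libraries and replicate 2 lay among them. Adam15 had a log2 fold change of -0.16 ± 0.09 (SE) with an adjusted p of 0.636 in edgeR's test, and of -0.26 without HSPA1A replicate 2, where it was called lower (adjusted p = 0.0126). Adam22, a brain ADAM without a working protease site, was near the floor at 0.959 ± 0.109 CPM in HSPA1A and 1.31 ± 0.20 CPM in Ctrl libraries (SD, n = 3 each).

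**Figure D4:**
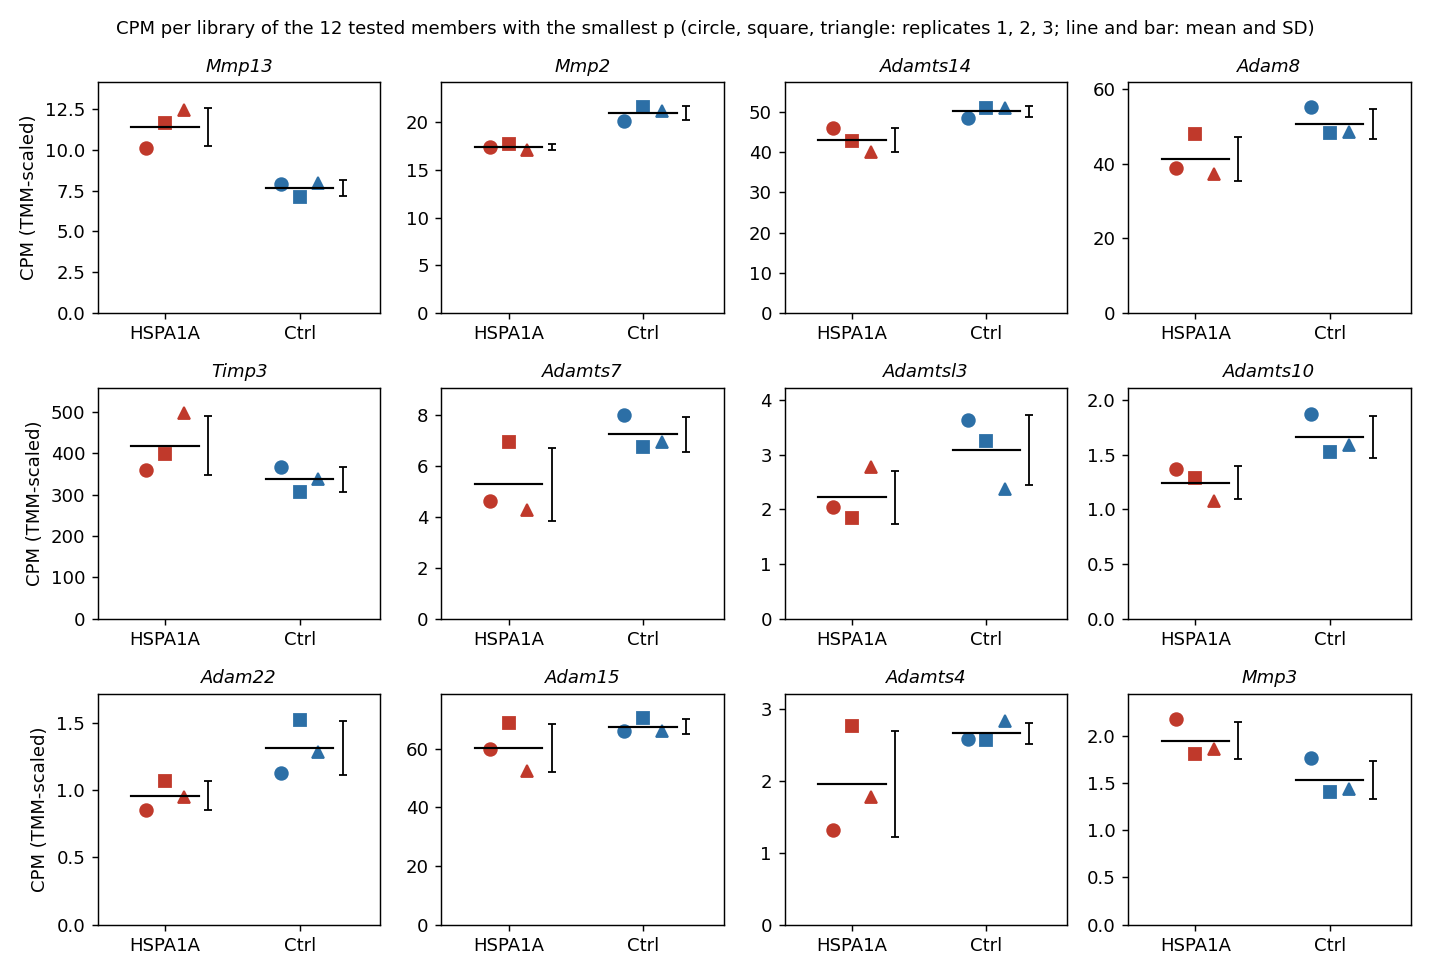
CPM of the 12 tested members with the smallest p in each library, with means and SD. Mmp13 lies higher and Mmp2 and Adamts14 lower in all 3 HSPA1A libraries, while in Adam8, Adamts7, Adam15 and Adamts4 the square, HSPA1A replicate 2, lies near the Ctrl libraries.

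Of the ADAMTS genes that trim procollagen, Adamts14 (ENSMUSG00000059901.10, chromosome 10, 61197112 to 61273438) stood at 46.1, 42.9 and 40.1 CPM in HSPA1A libraries, against 48.5, 51.0 and 51.1 CPM in Ctrl libraries. Every HSPA1A library lay below every Ctrl library, and the log2 fold change was -0.22 ± 0.06 (SE) with an adjusted p of 0.408 in edgeR's test. It was called lower without HSPA1A replicate 2, at a log2 fold change of -0.22 (adjusted p = 0.0382). Adamts2, which also encodes a procollagen-trimming enzyme, was lower in abundance at 4.55 ± 0.75 CPM in HSPA1A and 5.09 ± 0.77 CPM in Ctrl libraries (SD, n = 3 each), with a log2 fold change of -0.16 (95% interval -0.52 to 0.20). In FPKM the pair summed to 8.09 ± 0.48 in HSPA1A and 9.80 ± 0.38 in Ctrl libraries.

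Of 5 proteoglycan-cleaving ADAMTS genes, 3 were tested, 2 with a log2 fold change above 0 and 1 below. Adamts1, the most abundant of them, averaged 46.8 ± 6.3 CPM in HSPA1A and 45.3 ± 1.0 CPM in Ctrl libraries (SD, n = 3 each). Adamts4, an aggrecanase gene, stood at 1.32, 2.77 and 1.78 CPM in HSPA1A libraries, against 2.59, 2.57 and 2.84 CPM in Ctrl libraries. HSPA1A replicate 2 lay among the controls, and replicates 1 and 3 lay below them. The log2 fold change was -0.43 ± 0.24 (SE) with an adjusted p of 0.657 in edgeR's test, and it was -0.77 without HSPA1A replicate 2 (adjusted p = 0.0360). Adamts5, the other main aggrecanase gene, which lies within 108.0 kb of chromosome 16 together with Adamts1, averaged 2.84 ± 0.36 CPM in HSPA1A and 2.34 ± 0.37 CPM in Ctrl libraries, with a log2 fold change of 0.28 (95% interval -0.13 to 0.69).

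Adamts7, an enzyme gene known for cutting cartilage oligomeric matrix protein and for vascular remodelling, stood at 4.61, 6.91 and 4.26 CPM in HSPA1A libraries, against 8.0, 6.74 and 6.93 CPM in Ctrl libraries. HSPA1A replicates 1 and 3 lay below every Ctrl library and replicate 2 lay among them. The log2 fold change was -0.45 ± 0.18 (SE) with an adjusted p of 0.529 in edgeR's test, and it was -0.70 without HSPA1A replicate 2 (adjusted p = 0.00479). Adamts10, an enzyme gene linked to fibrillin microfibrils, stood at 1.37, 1.29 and 1.08 CPM in HSPA1A libraries, against 1.88, 1.52 and 1.59 CPM in Ctrl libraries, with no overlap and an adjusted p of 0.617. Adamts6 had a log2 fold change of 0.01 (95% interval -0.32 to 0.34).

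The ADAMTS-like genes encode secreted proteins that resemble ADAMTS enzymes without the protease part, several of which bind to fibrillin microfibrils. Adamtsl4 stood at 11.9, 21.1 and 11.8 CPM in HSPA1A libraries, against 17.4, 16.7 and 16.3 CPM in Ctrl libraries. HSPA1A replicate 2 lay above all Ctrl libraries and replicates 1 and 3 below them all. The log2 fold change was -0.16 ± 0.19 (SE) with an adjusted p of 0.844 in edgeR's test, and it was -0.50 without HSPA1A replicate 2, where the gene was called lower (adjusted p = 0.00184), and -0.01 without HSPA1A replicate 3. Adamtsl3 stood at 2.05, 1.85 and 2.77 CPM in HSPA1A libraries, against 3.64, 3.25 and 2.38 CPM in Ctrl libraries, with overlap and an adjusted p of 0.584. Adamtsl5, the most abundant of this family, averaged 56.9 ± 3.8 CPM in HSPA1A and 55.6 ± 4.3 CPM in Ctrl libraries (SD, n = 3 each), with a log2 fold change of 0.03 (95% interval -0.13 to 0.19).

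Across the 33 tested members, HSPA1A replicate 2 lay above replicates 1 and 3 by more than 0.2 on the log2 scale in 9, namely Mmp10, Adam8, Adam12, Adam15, Adamts4, Adamts6, Adamts7, Adamtsl1 and Adamtsl4. Over all tested genes this held for 14.7%. Replicate 2 lay below both by more than 0.2 in 4 members, Mmp19, Adam1a, Adam4 and Adamts1, against 9.9% of all tested genes. Without HSPA1A replicate 2, 9 members were called, 2 higher and 7 lower, where that fit called 10.2% of all tested genes, 5.27% of 12955 genes higher and 4.94% lower. The 2 were Mmp13 and Timp3, and the 7 were Adam8, Adamtsl4, Adamts7, Adam15, Mmp2, Adamts4 and Adamts14. In each of the other 5 fits that left out a library, 0 members were called. What sets HSPA1A replicate 2 apart was not tested.

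**Figure D5:**
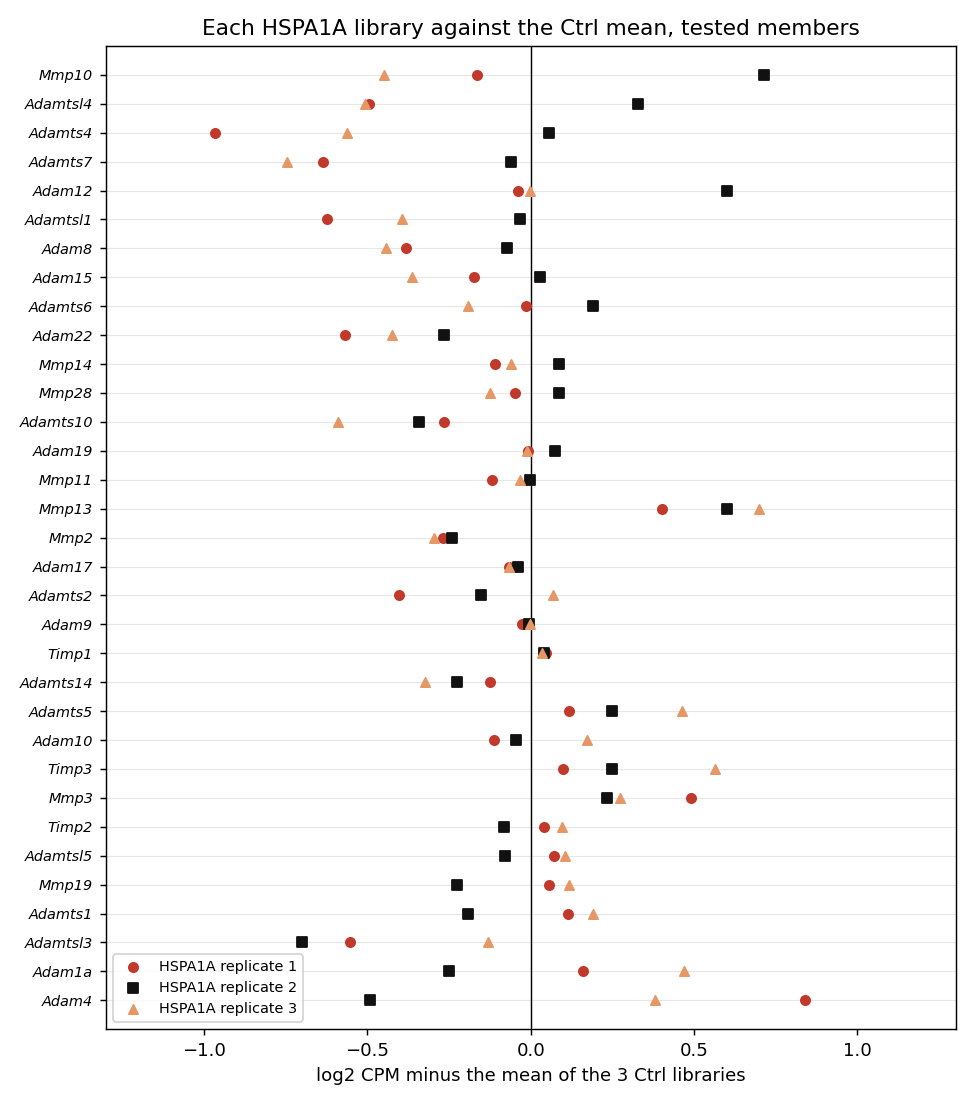
Log2 CPM of each HSPA1A library minus the mean of the 3 Ctrl libraries for the 33 tested members, ordered by how far replicate 2 lies above the mean of replicates 1 and 3. Mmp10, Adamtsl4, Adamts4 and Adamts7 stand at the top, with replicate 2 to the right of the other 2 libraries. Mmp13 and Mmp2 show all 3 libraries on the same side of 0, as do several other members, among them Adamts7, Adam8 and Adamts14.

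By overlap alone, which 14.5% of all tested genes lacked in either direction, 3 of the 33 members, Mmp3, Mmp13 and Timp1, had all HSPA1A libraries above all Ctrl libraries in CPM, against 7.3% of all tested genes. All HSPA1A libraries lay below all Ctrl libraries in 6 members, Mmp2, Adam8, Adam17, Adam22, Adamts10 and Adamts14, against 7.17% of all tested genes. Adam8 belongs to this count only by the narrow gap between HSPA1A replicate 2 and Ctrl replicate 2.

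Genes that activate, carry or oppose these enzymes, or are cut by them, were described from 7 lists, and none of their members was called with all 6 libraries. The list named membrane regulators here also holds Pcolce, Pcolce2, Spock2 and Frmd8, so its name is loose. Without HSPA1A replicate 2, where 10.2% of all tested genes were called, each list had called members: 5 shed proteins, 4 matrix substrates, 2 membrane regulators, 1 astacin or other metalloprotease and 1 convertase, all lower, 1 of the cathepsins and cystatins, higher, and 1 higher and 1 lower of the plasminogen activators and serpins. Of the plasminogen activators and their serpins, 8 of the 11 in the table were tested, none had an unadjusted p under 0.05, and the median log2 fold change was 0.0012. Plau, which encodes urokinase, averaged 41.6 ± 3.7 CPM in HSPA1A and 42.0 ± 0.4 CPM in Ctrl libraries (SD, n = 3 each). Of the proprotein convertases, which cut off the prodomain of several of these proteases, all 6 in the table were tested and none had an unadjusted p under 0.05, with Furin at 57.6 ± 4.8 CPM in HSPA1A and 61.0 ± 2.2 CPM in Ctrl libraries. Of 13 tested membrane regulators, 2 had an unadjusted p under 0.05, where 8.59% of all tested genes did, and neither was called. Rhbdf2, which encodes an iRhom protein that carries Adam17 to the cell surface, averaged 14.6 ± 1.2 CPM in HSPA1A and 18.2 ± 0.4 CPM in Ctrl libraries. Its log2 fold change was -0.32 ± 0.08 (SE), with an adjusted p of 0.325 in edgeR's test. Rhbdf1, the other iRhom gene on the list, averaged 27.8 ± 3.0 CPM in HSPA1A and 27.9 ± 0.2 CPM in Ctrl libraries, a log2 fold change of -0.0039. Tspan17, a partner of Adam10, averaged 10.7 ± 0.6 and 12.8 ± 0.7 CPM in HSPA1A and Ctrl libraries, with an adjusted p of 0.485. The groups did not overlap for Rhbdf2 or Tspan17. Tspan5, Tspan14 and Tspan15, on the same list, had log2 fold changes of 0.02, -0.11 and -0.04.

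Of the shed membrane proteins, 25 of 29 were tested and 7 had an unadjusted p under 0.05, all of them lower, where 4.26% of all tested genes were lower at that threshold. The median log2 fold change was -0.051. That count of 7 was 1 without Ctrl replicate 1 or without Ctrl replicate 3, 3 without Ctrl replicate 2, HSPA1A replicate 1 or HSPA1A replicate 3, 10 without HSPA1A replicate 2, and 2 with DESeq2. Tnf, the cytokine gene whose product Adam17 releases, averaged 2.03 ± 0.54 CPM in HSPA1A and 2.84 ± 0.14 CPM in Ctrl libraries, and L1cam, an adhesion molecule gene, 82.7 ± 6.8 and 94.0 ± 5.2 CPM, with adjusted p-values of 0.545 and 0.517 in edgeR's test. Vcam1, another adhesion molecule gene, averaged 45.3 ± 0.8 CPM in HSPA1A and 49.7 ± 1.0 CPM in Ctrl libraries, with an adjusted p of 0.517. Of the matrix substrates, 21 of the 29 in the table were tested, 17 of them had a log2 fold change below 0 where 49% of all tested genes did, and the median was -0.045. Without HSPA1A replicate 1, 10 of the 21 lay below 0 with a median of 0.00087, without Ctrl replicate 1 the median was -0.0076, without HSPA1A replicate 3 it was -0.014, and on log2(FPKM + 1) it was -0.10, against -0.041 over all tested genes. Col1a1 averaged 66.5 ± 8.0 CPM in HSPA1A and 76.5 ± 3.5 CPM in Ctrl libraries, and Thbs1, which encodes thrombospondin 1, 8.34 ± 0.90 and 6.62 ± 0.11 CPM. The cathepsins and cystatins, lysosomal proteases and their inhibitors, had 9 of 11 log2 fold changes above 0 where 51% of all tested genes did, with a median of 0.098. Ctsb averaged 1605 ± 24 CPM in HSPA1A and 1475 ± 15 CPM in Ctrl libraries, a log2 fold change of 0.12 ± 0.05 (SE) with an adjusted p of 0.529. The astacins and other metalloproteases had 4 of the 10 genes in the table tested, none with an unadjusted p under 0.05, and Bmp1, which encodes the procollagen C-proteinase, averaged 50.3 ± 6.0 CPM in HSPA1A and 56.3 ± 3.1 CPM in Ctrl libraries.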

How the data were processed

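The authors deposited whole read counts per gene for 22913 genes and FPKM for 22833 genes, 1 column per sample. That the second table holds FPKM is known per the file headers. The submitters' processing notes list bcl2fastq, TopHat2, edgeR and GRCm38, without versions. Sources used here name no read counter, strand option or gene annotation. Libraries were made with a stranded kit, per the labels' protocols. Gene positions came from GENCODE M21 (GRCm38), which held all 58 members by identifier, and promoters from RefSeq (GRCm38.p6).

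Counts were filtered with filterByExpr (minimum count 10, minimum total 15), scaled by TMM and compared with edgeR 4.0.16 (glmQLFit, glmQLFTest) under R 4.3.3, without covariates, with Benjamini-Hochberg adjustment over 12827 genes. The fit was tested on simulated data. DESeq2 1.42.0, limma 3.58.1 and other filters and scalings were alternatives. Figures were drawn with matplotlib 3.10.9.

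Members, lists and tests were chosen with earlier results of these data known. The rule for named genes took called members, the 12 tested members with the smallest p, the 4 most abundant Mmp, Adam, and Adamts or Adamtsl genes, every Timp, members called without a library, and up to 2 genes by p of each related list. Plau, Tnf and the remaining members named were chosen for their role after their values were seen.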

Additional observations from a re-analysis of the deposited data

How the results depend on the processing

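The calls over all genes, 3 higher and 20 lower in HSPA1A, moved most with the library left out, from 0 to 683 higher and from 10 to 640 lower, both highest without HSPA1A replicate 2. Members called ran from 0 to 2 higher and from 0 to 7 lower over the same 6 fits. Without a filter on low counts, 94 genes were called higher and 111 lower, among them 2 members higher and 1 lower. DESeq2 called 26 higher and 38 lower, among them 1 member, higher. DESeq2-type size factors, library totals alone and a minimum of 5 CPM in 3 libraries each called 1 gene higher, and the 3 limma fits to log2 FPKM called 0 higher. The labels do not say if replicate numbers pair the libraries. Correlations between same-numbered libraries were -0.1, -0.0015 and 0.085, and those between libraries of unlike number ran from -0.090 to 0.091. With 3 libraries per group this cannot decide if they are paired. With a replicate block 13 genes were called lower and 0 members. The cause was not tested.

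The median log2 fold change of the tested members was -0.047 with library totals alone, -0.051 on log2(FPKM + 1), -0.074 on log2(FPKM + 0.1) and -0.066 at a mean of at least 1 FPKM, and it ran from -0.073 to -0.0099 over the fits that left out a library. The 3 FPKM fits, in this order, gave 0.031, 0.032 and 0.040 for cathepsins and -0.070, -0.074 and -0.070 for plasminogen activators. Shed proteins gave -0.13 on log2(FPKM + 0.1) and -0.14 at a mean of at least 1 FPKM, and astacins -0.031 without a filter and -0.17 on log2(FPKM + 0.1).

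The log2 fold changes of some members changed sign, none of them called. With all libraries, Adam4 was at 0.36, Adam12 at 0.22, Adam1a at 0.14 and Mmp10 at 0.13, and the others were close to 0. With library totals alone, Timp2 was at -0.016, Adam10 at -0.029, Adam19 at -0.016, Adamtsl5 at -0.0050 and Adamts6 at -0.028. Without a filter, Adam10 was at -0.00090 and Adamts6 at -0.0015. On log2(FPKM + 1), Timp2 was at -0.038, Adam10 at -0.051, Adam19 at -0.034, Adamtsl5 at -0.024, Adamts6 at -0.024, Adamts1 at -0.018, Timp1 at -0.016 and Mmp10 at -0.0054, with the same values at a mean of at least 1 FPKM except for Adamts6, which that filter removed. On log2(FPKM + 0.1), they were at -0.039, -0.053, -0.038, -0.024, -0.054, -0.020, -0.016 and -0.022 in the same order. Over the fits that left out a library, Adam10 ran from -0.079 to 0.064, Adam12 from -0.029 to 0.34, Adam19 from -0.0076 to 0.046, Adam1a from -0.060 to 0.33, Adam4 from -0.019 to 0.71, Adam9 from -0.027 to 0.0076, Adamts1 from -0.031 to 0.15, Adamts6 from -0.10 to 0.097, Adamtsl5 from -0.019 to 0.091, Mmp10 from -0.30 to 0.35, Mmp14 from -0.084 to 0.015, Mmp19 from -0.076 to 0.090, Mmp28 from -0.089 to 0.044 and Timp2 from -0.017 to 0.071.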
